A study of Mus musculus with 18 samples.

Results

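The genes followed here mark the macrophages of pancreatic islets and their antigen presentation through major histocompatibility complex (MHC) class II. They were chosen by name, from a list of 42 symbols of myeloid lineage, complement C1q, Fc receptor, lysosomal and class II genes. The list names 1 gene by 2 symbols, Adgre1 and its older form Emr1, so that 41 of the 24346 listed genes were found, and 36 of them were abundant enough to be tested. Islets were isolated from C57BL/6 mice in which exon 2 of Cdh13, the gene of T-cadherin, had been deleted, and from mice in which that exon was floxed, that is, flanked by recombination sites but present. The 18 libraries formed 6 groups of 3, since each genotype was sampled when 8 weeks old and fed chow, when 14 weeks old and fed chow, and when 14 weeks old with high-fat feeding for the last 6 weeks. The labels give neither the driver of the deletion nor a separate animal for each library, so each p-value measures only the spread between these samples, which may be technical.

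Islets hold a resident population of macrophages that lies along the capillaries and beside the endocrine cells. These cells survive on signals through the receptor encoded by Csf1r, make the complement initiator C1q, sense immune complexes through Fc receptors that signal by the adaptors Fcer1g and Tyrobp, and digest what they take up with lysosomal enzymes such as lysozyme and cathepsin S. They also present peptides on MHC class II, a pair of an alpha and a beta chain (H2-Aa with H2-Ab1 in this strain). The invariant chain Cd74 blocks peptide binding to this pair, and cathepsin S, the product of Ctss, trims that chain.

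All libraries had similar breadth, with between 11474 and 11787 genes at 1 FPKM (fragments scaled to transcript length and library size) or more. Summed FPKM ranged from 903346 to 1394009, and Ins2 held 40.2% to 52.7% of it. Cdh13 lay between 1.08 and 2.06 FPKM in floxed and between 0.247 and 0.809 FPKM in deleted libraries, without overlap. The number of fragments behind each library is unknown, and no interval for counting error can be given. Differences below are differences of log2(FPKM + 1), a scale on which weakly expressed genes appear to change less than their FPKM did. They are called at an adjusted p under 0.05 from limma over 12234 genes.

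The start regions of 6 members whose levels carry the results below are shown first, since they belong to the cathepsin, C1q, lysozyme and class II genes that moved differently. Each is 300 bases of RefSeq sequence on GRCm38.p6, from 250 bases before to 50 bases after the gene's start, written 5′ to 3′ along the gene. Ctss lies at chr3:95526536-95526835, plus strand, C1qb at chr4:136886151-136886450, minus strand, Lyz1 at chr10:117292819-117293118, minus strand, Lyz2 at chr10:117282223-117282522, minus strand, H2-Aa at chr17:34287774-34288073, minus strand and H2-Eb1 at chr17:34305617-34305916, plus strand. Capitals mark ACTTCCT in the first 4, the reverse complement of AGGAAGT, which is a core letter string of the ETS family to which the myeloid factor PU.1 (Spi1) belongs. In the 2 class II genes capitals mark CTGATTGG, the Y box that class II promoters share.
Ctss: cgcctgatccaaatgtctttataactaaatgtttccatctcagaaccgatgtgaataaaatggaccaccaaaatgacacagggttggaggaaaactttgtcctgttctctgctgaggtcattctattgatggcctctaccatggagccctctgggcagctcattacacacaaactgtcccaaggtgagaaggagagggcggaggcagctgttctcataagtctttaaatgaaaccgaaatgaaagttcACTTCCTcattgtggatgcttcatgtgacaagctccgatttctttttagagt
C1qb: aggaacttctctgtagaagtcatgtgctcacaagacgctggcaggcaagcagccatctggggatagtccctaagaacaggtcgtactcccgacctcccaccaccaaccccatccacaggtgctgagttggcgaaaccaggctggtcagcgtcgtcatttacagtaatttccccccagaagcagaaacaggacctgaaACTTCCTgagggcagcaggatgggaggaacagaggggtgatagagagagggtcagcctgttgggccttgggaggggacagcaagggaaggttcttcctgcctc
Lyz1: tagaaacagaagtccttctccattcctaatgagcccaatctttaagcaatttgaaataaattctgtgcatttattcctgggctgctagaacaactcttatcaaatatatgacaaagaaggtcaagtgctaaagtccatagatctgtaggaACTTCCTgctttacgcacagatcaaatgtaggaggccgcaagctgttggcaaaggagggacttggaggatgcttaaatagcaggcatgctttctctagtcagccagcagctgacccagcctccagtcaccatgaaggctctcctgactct
Lyz2: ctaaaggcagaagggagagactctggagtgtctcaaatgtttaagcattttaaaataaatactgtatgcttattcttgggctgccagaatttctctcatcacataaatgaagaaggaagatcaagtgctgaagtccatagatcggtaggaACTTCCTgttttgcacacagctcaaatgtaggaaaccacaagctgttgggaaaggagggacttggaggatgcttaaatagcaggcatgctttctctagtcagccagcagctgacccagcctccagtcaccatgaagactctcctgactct
H2-Aa: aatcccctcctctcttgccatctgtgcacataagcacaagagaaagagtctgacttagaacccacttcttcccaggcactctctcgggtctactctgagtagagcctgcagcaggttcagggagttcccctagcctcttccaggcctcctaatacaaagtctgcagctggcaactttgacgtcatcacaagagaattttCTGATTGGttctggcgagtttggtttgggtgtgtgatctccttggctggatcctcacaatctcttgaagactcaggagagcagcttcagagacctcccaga
H2-Eb1: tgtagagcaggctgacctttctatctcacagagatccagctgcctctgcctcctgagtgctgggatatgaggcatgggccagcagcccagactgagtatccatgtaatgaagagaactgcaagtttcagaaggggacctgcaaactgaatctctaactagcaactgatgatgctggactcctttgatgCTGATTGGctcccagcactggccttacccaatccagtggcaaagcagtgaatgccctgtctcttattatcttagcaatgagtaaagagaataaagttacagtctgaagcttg
The marked letters begin 2 bases before the start in Ctss, 53 in C1qb, 100 in both lysozyme genes, 51 in H2-Aa and 62 in H2-Eb1. The counts below cover promoter windows of 31 of the 41 members, with the first listed window used for each gene. Not counted were Adgre1, C1qa, Cd14, Cd52, Cd74, Csf1r, H2-Ab1, Rgs1, Spi1 and Tyrobp. Whether the start regions of these members hold either string was not tested, so the shares do not describe the whole list. AGGAAGT on either strand stood in 10 of the 31 (32.3%), namely C1qb, C1qc, Cd53, Ctss, Fcgr1, Lyz1, Lyz2, Mrc1, Pld4 and Ptprc, and in 9.57% of 27025 promoters. CTGATTGG on either strand stood in 2 of the 31, H2-Aa and H2-Eb1, and in 4.31% of all promoters. No counted member held both strings. These matches describe letters in a window and not bound sites. Windows of Lyz1 and Lyz2 were identical at 201 of 300 positions, and 16.1% of the 50-base stretches of the Lyz1 transcript recur in Lyz2, so that part of the signal of each lysozyme gene may come from the other.

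The members were present at levels of macrophage genes in a bulk islet sample and differed widely among themselves. Apoe, a lipid carrier, was the most abundant (165 to 302 FPKM over the 18 libraries), followed by Lyz2, the macrophage lysozyme (69.4 to 203 FPKM), and Cd74 (75.9 to 131 FPKM). Receptors and lineage genes were far lower, with Csf1r at 2.19 to 5.97 FPKM and Adgre1, the gene of the F4/80 antigen, at 0.664 to 2.62 FPKM. Below the filter in all libraries were Itgam (0.118 to 0.650 FPKM), Ccr2 (0 to 0.448 FPKM), Fcgr1 (0.141 to 0.741 FPKM), Mrc1 (0.0477 to 0.408 FPKM) and Cd163, a scavenger receptor of tissue macrophages that was listed at 0 in 14 of the 18 libraries. Ptprc and Itgax passed the filter only through the floxed 14-week chow libraries, so a difference of that group in these genes was favoured by the filter.

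Markers of other blood cells were near the floor, among them those of dendritic and B cells, which also carry class II. Members were low in part too, with 5 of the 41 below 1 FPKM in every library, Itgam, Fcgr1 and Mrc1 among them. Of 9 B cell genes 8 stayed below 1 FPKM in every library, with Cd79a the exception at up to 5.44 FPKM and Pax5 at 0 throughout. Of 9 dendritic cell genes 7 stayed below 1 FPKM in every library, and Cd209a was at 0 throughout. The same held for 13 of 15 T and NK cell genes and for 8 of 10 neutrophil and monocyte genes, among which Retnlg was at 0 throughout. Summed over each list, B cell genes reached at most 6.43 FPKM and dendritic cell genes at most 2.37 FPKM, against 115 to 129.6 FPKM for the 4 class II members in the group where they were lowest. These sums set weakly expressed markers beside abundant transcripts and do not show which cells the class II RNA came from.

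**Figure D1:**
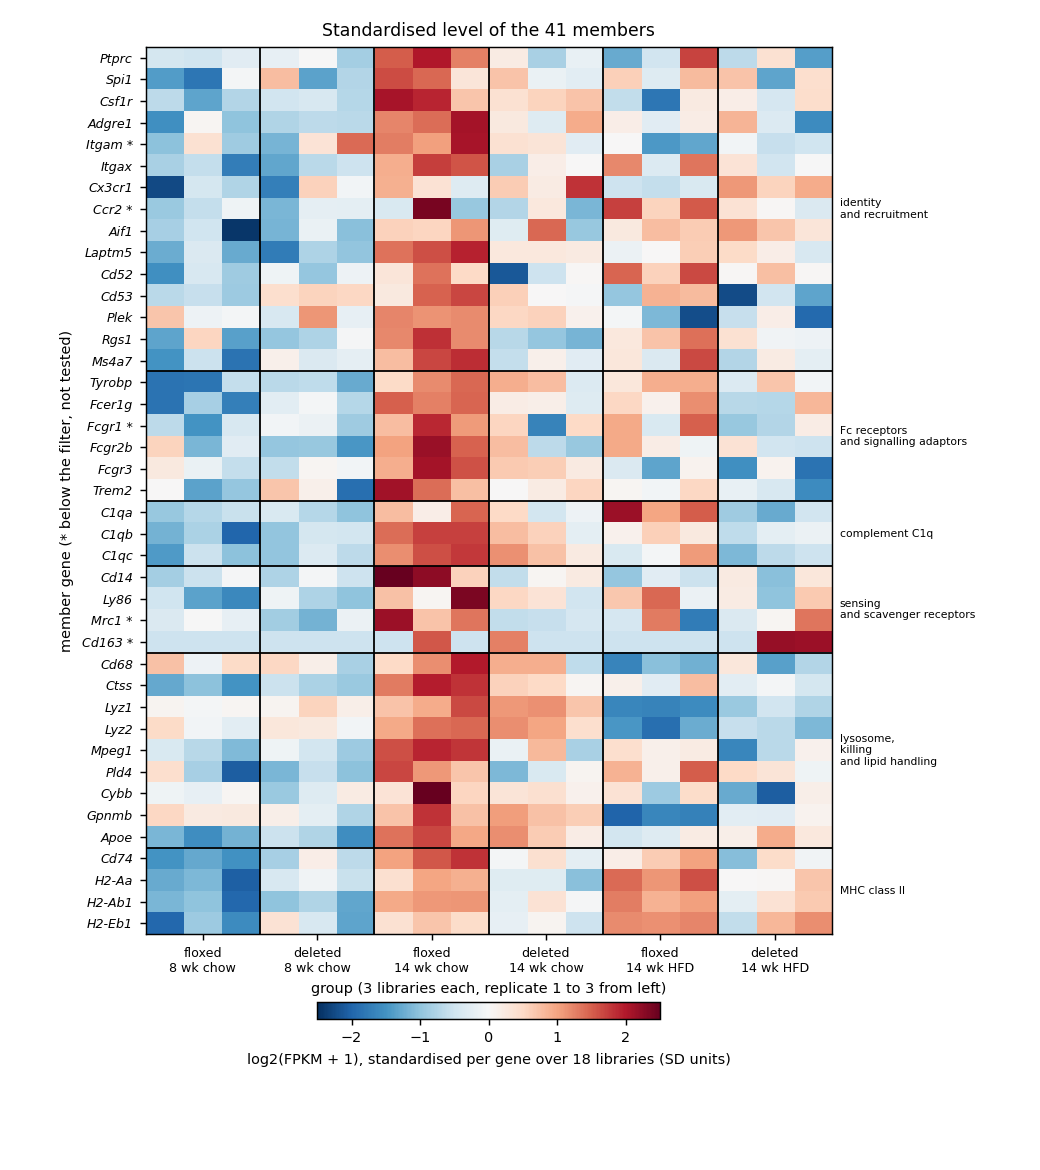
Level of each of the 41 members (rows, grouped by role) in the 18 libraries (columns, 3 per group), as log2(FPKM + 1) standardised per gene. The floxed 14-week chow libraries are red in most rows, and in the floxed high-fat libraries the lysozyme and Gpnmb rows are blue while the class II rows stay red.

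Between 8 and 14 weeks on chow the macrophage and class II genes rose together in floxed islets. Of the 36 members tested 28 were called higher and 0 lower, where 3.2% of all tested genes were called higher. Without Itgax, which passed the filter only through the older floxed group, 27 were called. All 41 differences lay above 0 with a median of 0.68 on the log2 scale, against -0.02 over all genes tested, and in 35 of the 36 tested the groups did not overlap (11.4% of tested genes). The 35 include Itgax and Ptprc, which both passed the filter only through the older floxed group. The summed FPKM of the members was 651 ± 21.2 at 8 weeks and 1080.2 ± 50.3 at 14 weeks (mean ± SD, n = 3). In bulk islets more macrophages and more RNA per macrophage cannot be told apart, here or in any result below.

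The rise took in every role of the list. Among identity genes 9 of 13 tested were called, Itgax among them, and Csf1r is an example, which measured 3.02, 2.51 and 2.96 FPKM in the 3 libraries at 8 weeks and 5.97, 5.78 and 4.29 FPKM at 14 weeks. Its difference was 0.72 (SE 0.13, adjusted p = 0.0041), and each library at 14 weeks was above each at 8 weeks. Laptm5, a lysosomal membrane protein of blood cells, rose by 0.87 (SE 0.11, adjusted p = 0.00016). Of the Fc receptor and adaptor genes 4 of 5 tested were called, with Fcer1g, the common gamma chain, at 16.1 ± 2.17 and 31.4 ± 0.853 FPKM (mean ± SD, n = 3) and Tyrobp, the adaptor DAP12, at 27.7 ± 4.79 and 48.4 ± 5.33 FPKM. The 2 sensing receptors tested, Cd14 for bacterial lipopolysaccharide and Ly86, the MD-1 partner of a toll-like receptor homologue, were both called.

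All 3 chains of C1q, whose genes lie side by side on chromosome 4 (C1qb at chr4:136880129-136886187), were called higher. C1qb measured 25.6, 28.3 and 20.6 FPKM at 8 weeks and 49.9, 54.1 and 53.9 FPKM at 14 weeks. The 3 libraries at 14 weeks were close to each other and all far above those at 8 weeks, with a difference of 1.06 (SE 0.10, adjusted p = 7.68e-06). C1qc rose by 0.90 and C1qa by 0.46 (adjusted p = 0.00019 and 0.013). Ctss (chr3:95526786-95556403) had the smallest p of the members: it measured 23.9, 25.5 and 22.7 FPKM at 8 weeks and 45.0, 52.7 and 50.8 FPKM at 14 weeks. That is a difference of 1.01 (SE 0.09, adjusted p = 1.07e-06) with narrow groups that did not overlap. Mpeg1, the pore-forming perforin-2 of phagocytes, rose from 1.42 ± 0.314 to 5.05 ± 0.340 FPKM, while Lyz2 rose from 131 ± 16.7 to 192 ± 15.8 FPKM and Apoe from 174 ± 7.40 to 284 ± 18.6 FPKM (mean ± SD, n = 3).

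The class II genes were all called higher with age in floxed islets. Cd74 measured 76.3, 78.8 and 75.9 FPKM at 8 weeks and 115, 126 and 131 FPKM at 14 weeks. H2-Ab1, the beta chain (chr17:34257689-34269419), measured 23.8, 24.9 and 18.5 FPKM at 8 weeks and 45.0, 47.1 and 47.2 FPKM at 14 weeks. H2-Aa, the alpha chain (chr17:34282744-34287823), measured 16.8, 17.5 and 13.5 FPKM and then 26.7, 31.5 and 30.6 FPKM. In all 3 genes each older library was above each younger one, with differences of 0.68, 1.03 and 0.86 (adjusted p = 9.72e-05, 1.03e-05 and 8.16e-05). H2-Eb1, the beta chain of the second class II isotype, rose by 0.84 (adjusted p = 0.0088). Background on this strain is that the matching alpha chain gene is not functional, and its listed row H2-Ea-ps reached at most 0.124 FPKM.

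Of the 28 calls 15 held in all 14 alternative settings tried for this comparison: Apoe, C1qb, C1qc, Cd74, Csf1r, Ctss, Fcer1g, H2-Aa, H2-Ab1, Itgax, Laptm5, Lyz2, Mpeg1, Ms4a7 and Tyrobp. The filter favoured Itgax, as given above, and its call also held with no filter on low values. Leaving out floxed 8-week replicates 1, 2 and 3 in turn left 20, 22 and 21 of the 28 calls, and leaving out floxed 14-week replicates 1, 2 and 3 left 24, 21 and 20. The genes that lost their call with at least 1 of these libraries left out were Adgre1, Aif1, C1qa, Cd53, Fcgr3, H2-Eb1, Ly86, Lyz1, Pld4, Rgs1, Spi1 and Trem2, whose differences in those fits still lay between 0.36 and 0.76. Acinar genes, which encode digestive enzymes of the exocrine pancreas, moved with this comparison, and with their mean as a covariate 18 of the 28 calls held. In the 10 genes that lost their call the difference was 42.4% to 129% of its value without the covariate. In 4 of them (Adgre1, C1qa, Cd53 and Pld4) it was as large or larger, and it shrank most in Trem2 (0.66 to 0.28) and H2-Eb1 (0.84 to 0.55). With the replicate number as a block Pld4 lost its call (adjusted p = 0.061).

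The acinar list held 16 genes, of which Amy2a5 was at 0 in every library and 5 were called higher with age in floxed islets. Its summed FPKM was 116, 303 and 174 in the 3 floxed libraries at 8 weeks and 6356, 2794 and 1267 at 14 weeks. Within the 14-week group the library with the highest acinar sum had the lowest sum of the members, which measured 1023, 1119 and 1098 FPKM in the same order. In deleted islets at 8 weeks the acinar sum was 1840.3, 337 and 53.3 FPKM while the members' sum was 732, 746 and 661 FPKM. Endothelial genes also lay higher at 14 weeks in floxed islets (11 of 11 above 0, 3 called), with sums of 144 to 188 and 219 to 228 FPKM. Fibroblast and pericyte genes lay above 0 in 10 of 10, with 1 called, and their sums were 16.5 to 24.7 and 27.6 to 50.6 FPKM. The part of these other cells in the age difference was not tested beyond the acinar covariate.

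**Figure D2:**
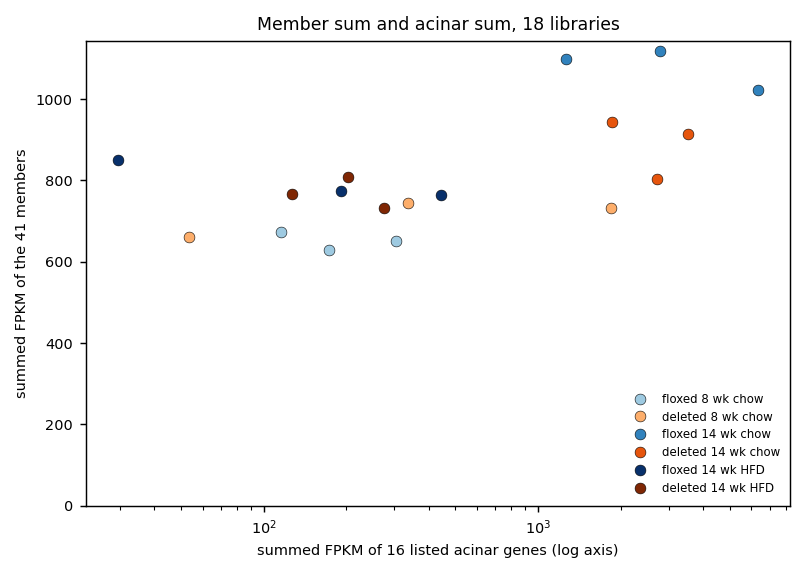
Summed FPKM of the 41 members (vertical axis, from 0) against that of the 16 listed acinar genes (horizontal, log axis) in each of the 18 libraries, coloured by group. The 3 floxed 14-week chow libraries have the highest member sums over an acinar range of 1267 to 6356 FPKM, and the deleted 8-week library at 1840 FPKM acinar stays among the other 8-week libraries in its member sum.

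In deleted islets the same age comparison called 6 members higher and 0 lower, where 2.35% of all tested genes were called higher. These were Laptm5, C1qc, Ctss, Gpnmb, Apoe and H2-Ab1. The median difference over the 41 members was 0.18, against -0.01 over all genes tested, and 13 members had groups that did not overlap (9.93% of tested genes). Ctss measured 28.7, 27.0 and 26.1 FPKM at 8 weeks and 37.8, 37.0 and 33.1 FPKM at 14 weeks in deleted islets. The groups did not overlap, and the difference was 0.39 (SE 0.09, adjusted p = 0.017). H2-Aa measured 21.4, 23.3 and 20.5 FPKM and then 22.0, 22.0 and 17.9 FPKM, overlapping groups with a difference of -0.08 (adjusted p = 0.79). Apoe rose by 0.43 and Gpnmb, a lysosomal membrane glycoprotein, by 0.66 (adjusted p = 0.0059 and 0.027).

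None of these 6 calls held in all 14 settings. Left out in turn, deleted 8-week replicates 1, 2 and 3 left 3, 4 and 2 of the 6 calls and deleted 14-week replicates 1, 2 and 3 left 1, 1 and 3, the last with 6 members called in all. With only the 2 groups in the fit 0 members were called, where 1864 genes had an unadjusted p under 0.05 in the fit of all groups, and with sample quality weights 11 were called. In the fits that lost them, the differences of the 6 genes with 1 library left out lay between 0.35 and 0.72. With the acinar mean as a covariate the calls of Apoe, Gpnmb and H2-Ab1 were lost, at differences of 0.38, 0.53 and 0.43.

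Other cell types differed with age in deleted islets too. Acinar genes lay above 0 in 15 of 15 tested, with 0 called and 9 without overlap, and their sums were 53.3 to 1840.3 FPKM at 8 weeks and 1867 to 3513 FPKM at 14 weeks. Endothelial genes lay below 0 in 8 of 11, with 1 called, Egfl7, which was higher, and sums of 188 to 212 and 164 to 188 FPKM. Among 10 islet hormone and secretory genes the glucagon gene Gcg and the granin gene Chgb rose, while the insulin gene Ins1 and the pancreatic polypeptide gene Ppy fell (adjusted p = 0.0014, 0.017, 0.04 and 0.02). In floxed islets only Chgb of these was called with age, higher by 0.57. Apart from the acinar covariate, the part of these cells in the members' differences was not tested.

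The age difference itself was compared between the genotypes as an interaction, the age difference of deleted islets minus that of floxed islets. It was called below 0 for 2 members, Ctss and H2-Aa, and above 0 for none, where 0.147% of all tested genes were called below 0. For H2-Aa it was -0.94 (SE 0.15, adjusted p = 0.012), and for Ctss -0.63 (SE 0.12, adjusted p = 0.043). Just outside the threshold were Fcer1g at -0.82, Cd74 at -0.57 and C1qb at -0.70 (adjusted p = 0.052, 0.057 and 0.059). Of the 36 tested members 35 lay below 0, with a median of -0.44, against 0.01 over all genes tested. The 36 include Ptprc and Itgax, which passed the filter only through the floxed 14-week chow libraries. In these genes the filter favoured an interaction below 0. The call of H2-Aa held in 19 of 20 settings and was lost with no filter on low values (adjusted p = 0.061). The call of Ctss held in 10 of 20. It was lost with no filter on low values (adjusted p = 0.11), with the replicate block (adjusted p = 0.051) and with floxed 8-week replicate 1 or 3, deleted 8-week replicate 1, 2 or 3, floxed 14-week replicate 2 or 3 or deleted 14-week replicate 3 left out, the differences without 1 library lying between -0.65 and -0.57.

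The genotypes were then compared at each age. At 8 weeks 0 members were called in either direction, where 0.548% of all tested genes were called and 1535 genes had an unadjusted p under 0.05, and with sample quality weights 2 members were called higher. The class II members had the widest gap in the direction of deleted islets, with H2-Aa at 16.8, 17.5 and 13.5 FPKM in floxed and 21.4, 23.3 and 20.5 FPKM in deleted libraries. These groups did not overlap, and the difference of 0.43 had an adjusted p of 0.067. Over the 41 members the median difference was 0.11, with 31 above and 9 below 0.

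At 14 weeks on chow the members lay lower in deleted than in floxed islets, and 2 passed the test. The called genes were Rgs1, a brake on G protein signalling in leukocytes, and Ctss, where 0.049% of all tested genes were called lower. Rgs1 measured 3.27, 3.96 and 3.26 FPKM in floxed and 1.73, 1.55 and 1.44 FPKM in deleted libraries, a difference of -0.80 (SE 0.15, adjusted p = 0.039). Ctss measured 45.0, 52.7 and 50.8 FPKM in floxed and, as above, 37.8, 37.0 and 33.1 FPKM in deleted libraries, a difference of -0.45 (SE 0.09, adjusted p = 0.039). In both genes every deleted library was below every floxed library. Of the 41 members 40 lay below 0, with a median of -0.31 against 0.00 over all genes tested, and in 22 of the 36 tested the groups did not overlap, with deleted islets lower (7.36% of tested genes). These included all 4 class II members, with H2-Aa at 22.0, 22.0 and 17.9 FPKM in deleted libraries, a difference from floxed of -0.51 (adjusted p = 0.058). The 22 also include Ptprc and Itgax, which passed the filter only through the floxed group of this comparison.

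Those 2 calls were not stable. Without floxed 14-week replicate 1 the call of Ctss was kept and that of Rgs1 lost, and leaving out any of the other 5 libraries of these groups ended both calls. Without 1 library the difference of Rgs1 lay between -0.85 and -0.73 where its call was lost, and that of Ctss between -0.49 and -0.39. With the replicate block 0 members were called (adjusted p = 0.059 for Rgs1 and 0.06 for Ctss), with only these groups in the fit 0 were called, and with sample quality weights 10 were called. Endothelial genes lay lower in deleted islets at the same time (11 of 11 below 0, 0 called), with sums of 164 to 188 FPKM against 219 to 228 FPKM. Fibroblast and pericyte genes lay below 0 in 9 of 10, with 0 called, a median of -0.30 and overlapping sums of 20.5 to 35.1 and 27.6 to 50.6 FPKM. Acinar sums were 1867 to 3513 FPKM against 1267 to 6356 FPKM and overlapped, and with the acinar covariate both calls held (-0.45 for Ctss and -0.81 for Rgs1, adjusted p = 0.037 for each). The part of the endothelial, fibroblast and pericyte genes was not tested.

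**Figure D3:**
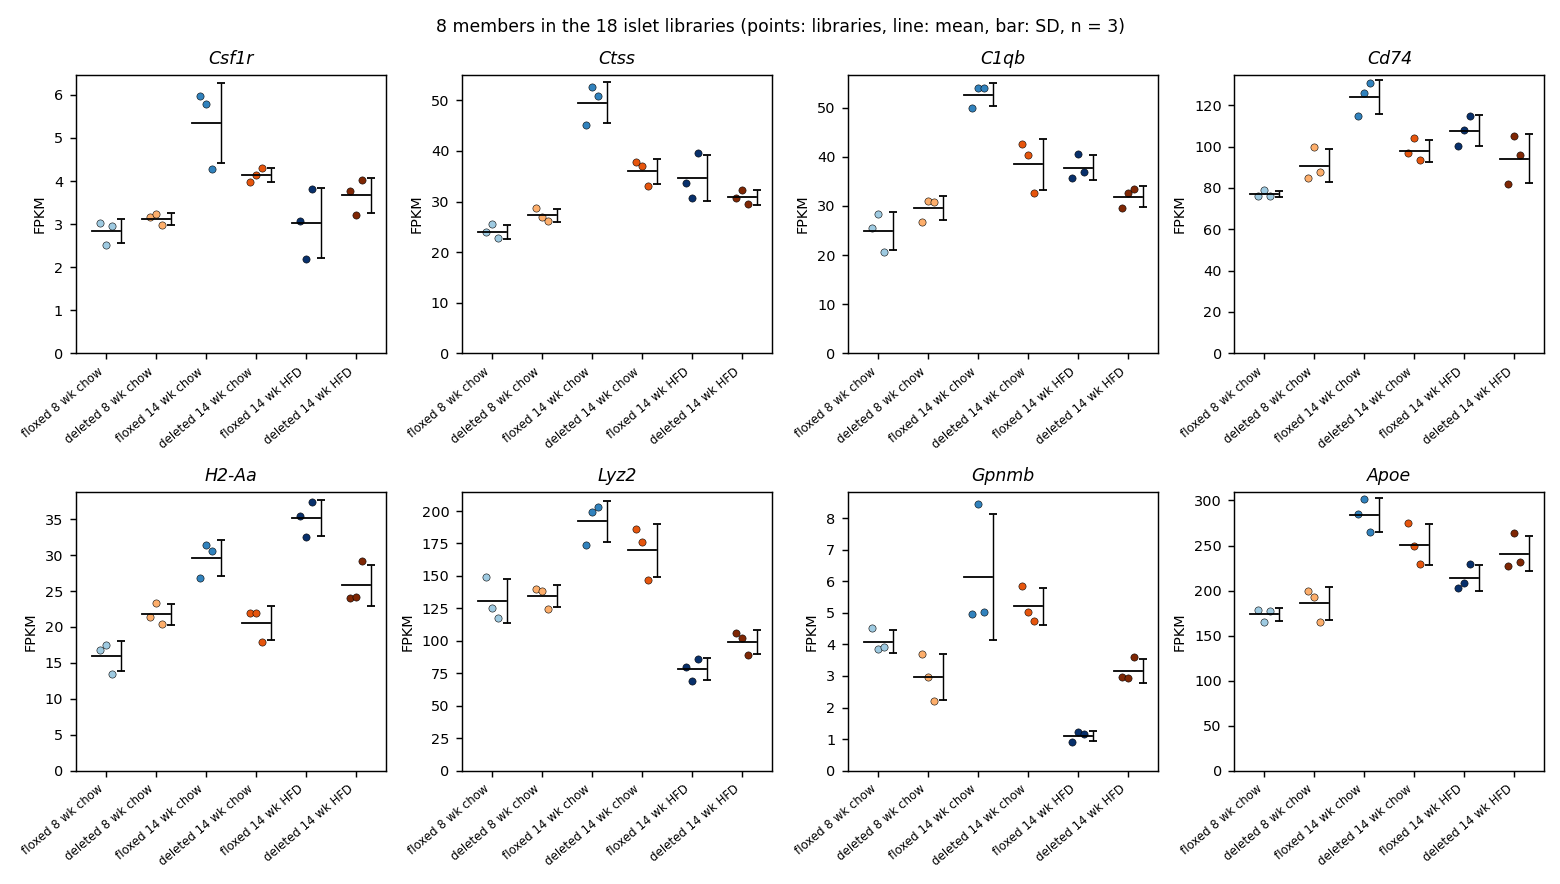
FPKM of 8 members in every library (points), with the mean (line) and SD (bar, n = 3) of each of the 6 groups. Ctss, C1qb and Cd74 peak in floxed islets at 14 weeks on chow, whereas Lyz2 and Gpnmb are lowest and H2-Aa highest in floxed islets on the high-fat diet.

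The high-fat diet divided the members. In floxed islets at 14 weeks 15 members were called lower and 0 higher than on chow, where 13.5% of all tested genes were called lower. Most falls lay in genes of the lysosome, killing and lipid handling (7 of 9 called), C1q (2 of 3) and identity genes (4 of 13). Of the 4 class II genes 0 were called in either direction. The median difference was -0.54 for the lysosome, killing and lipid genes and 0.12 for the class II genes, against -0.27 for all 41 members and -0.01 over all genes tested. This comparison shares its chow libraries with the age and genotype comparisons above, so a high or low value in those 3 libraries enters each of them.

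Lysozyme and Gpnmb fell furthest. Lyz2 (chr10:117277331-117282321) measured 174, 199 and 203 FPKM on chow and 80.0, 69.4 and 85.6 FPKM on the diet. Lyz1 (chr10:117287797-117292868), its neighbour, measured 10.2, 11 and 14.1 FPKM and then 4.32, 4.27 and 4.42 FPKM. Gpnmb (chr6:49036546-49070929) measured 4.96, 8.46 and 5.01 FPKM and then 0.905, 1.23 and 1.17 FPKM. The groups were far apart in all 3 genes, with differences of -1.28 (SE 0.10), -1.25 (SE 0.10) and -1.73 (SE 0.16). Their adjusted p-values were 8.96e-08, 1.04e-07 and 3.56e-07. All 3 were also lower on the diet than in the 8-week floxed libraries, where Lyz2 measured 149, 125 and 117 FPKM and Gpnmb 4.5, 3.86 and 3.91 FPKM.

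Smaller falls were called in 4 other genes of the lysosome, killing and lipid group, while Cybb and Pld4 of that group were not called (-0.33 and -0.09, adjusted p = 0.15 and 0.72). Cd68, a lysosomal glycoprotein used as a macrophage stain, fell by 0.54, Ctss by 0.51, Apoe by 0.41 and Mpeg1 by 0.81 on the log2 scale (adjusted p = 0.00091, 0.00025, 0.0012 and 0.0063). Ctss measured 33.8, 30.6 and 39.6 FPKM on the diet, below the chow libraries and above those at 8 weeks. Among receptors, Cd14 fell by 1.16, the Fc receptor Fcgr3 by 0.82 and Csf1r by 0.67 (adjusted p = 0.00056, 0.0019 and 0.0011). Of 50-base stretches of the Fcgr3 transcript 12.8% recur in Fcgr2b, so these receptors may share reads. C1qb and C1qc fell by 0.47 and 0.47, while C1qa measured 28.5, 25.1 and 32.9 FPKM on chow and 38.0, 29.8 and 33.3 FPKM on the diet, a difference of 0.22 (adjusted p = 0.11).

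No class II gene was called between diet and chow in floxed islets. Of the 4 differences 3 lay above 0 and 1, that of Cd74, below 0. H2-Aa measured 35.5, 32.6 and 37.4 FPKM on the diet, each value above each chow library, with a difference of 0.24 (adjusted p = 0.092). H2-Ab1 measured 49.8, 43.9 and 46.1 FPKM on the diet, overlapping the chow values, with a difference of 0.00 (SE 0.11). Cd74 measured 100.1, 108 and 115 FPKM on the diet, each value below each chow library, with a difference of -0.20 (adjusted p = 0.082). A p above the threshold does not show that the levels were equal. These values hold on the deposited scale, on which the median of all genes stayed near 0 between diet and chow. Summed FPKM was higher on the diet, and as a share of it the members held 0.105% to 0.114% on chow and 0.0556% to 0.0617% on the diet in floxed islets, against 0.0569% to 0.0615% at 8 weeks.

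Ratios within a library do not depend on that scale. Lyz2 per Cd74 was 1.51, 1.58 and 1.55 in the 3 floxed chow libraries at 14 weeks and 0.799, 0.641 and 0.746 on the diet. In deleted islets it was 1.92, 1.69 and 1.57 on chow and 1.30, 0.978 and 0.926 on the diet. The lysozyme gene was thus lower relative to the invariant chain in every diet library than in any chow library of the 2 ages, and lower in the 3 floxed than in the 3 deleted diet libraries. The summed class II alpha and beta chains (H2-Aa, H2-Ab1 and H2-Eb1) per summed C1q chains were 0.788, 0.830 and 0.753 in floxed islets on chow and 1.09, 1.01 and 1.02 on the diet. In deleted islets the same ratio was 0.650, 0.809 and 0.775 on chow and 0.990, 1.11 and 1.17 on the diet, again without overlap. These ratios were chosen after the values of the genes were seen and carry no test.

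**Figure D4:**
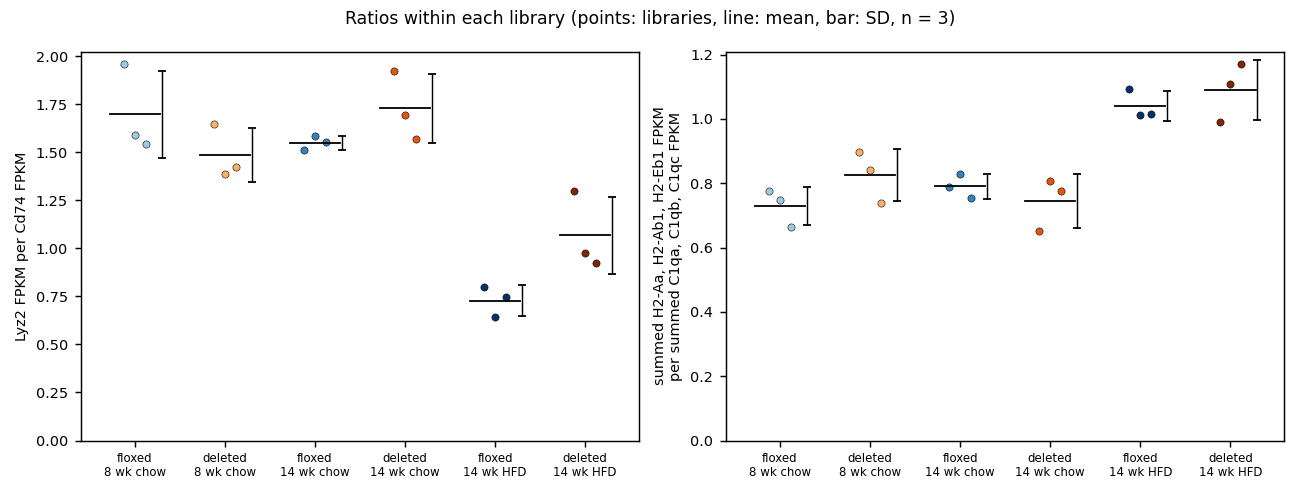
Left, FPKM of Lyz2 per FPKM of Cd74, and right, summed class II alpha and beta chain FPKM per summed C1q FPKM, in every library (points) with the mean (line) and SD (bar, n = 3) of each group. All 6 high-fat diet libraries lie below the 12 chow libraries on the left and above them on the right.

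Of the 15 calls in floxed islets 10 held in all 14 settings: C1qb, C1qc, Cd68, Csf1r, Ctss, Fcgr3, Gpnmb, Laptm5, Lyz1 and Lyz2. The call of Adgre1 was lost when any 1 of the 6 libraries of these groups was left out, with differences between -0.53 and -0.39. It was lost with the replicate block as well (adjusted p = 0.051). With the acinar mean as a covariate the calls of Adgre1, Apoe, Cd14, Mpeg1 and Plek were lost, at differences of -0.48, -0.33, -0.92, -0.70 and -0.47, which are 79.3% to 101% of those without it. Acinar genes fell with the diet in floxed islets, with 14 of 15 tested called lower and sums of 29.4 to 445 FPKM against 1267 to 6356 FPKM on chow. Endothelial genes had 5 of 11 called lower and fibroblast and pericyte genes 3 of 7. Of the 10 islet hormone and secretory genes 4 were called higher (Ins1, Ins2, Iapp and Chga) and 2 lower (Gcg and the somatostatin gene Sst), and their sum was 519005 to 602894 FPKM on chow and 875022 to 911551 FPKM on the diet. Nkg7, a granule gene of T and NK cells, was called higher, at 0.114, 0.138 and 0.114 FPKM on chow and 0.969, 0.431 and 0.599 FPKM on the diet. All of these values lay below 1 FPKM, near the floor. Apart from the acinar covariate, the part of these cells in the members' falls was not tested.

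In deleted islets the diet comparison called 6 members lower and 0 higher, where 5.91% of all tested genes were called lower. They were Lyz1, Lyz2, Gpnmb, C1qc, Fcgr3 and Cd53, a tetraspanin of leukocytes. Lyz2 measured 186, 176 and 147 FPKM on chow and 106, 103 and 88.9 FPKM on the diet, groups without overlap and a difference of -0.76 (SE 0.10, adjusted p = 7.27e-05). Gpnmb measured 5.86, 5.02 and 4.74 FPKM and then 2.96, 2.92 and 3.59 FPKM, a difference of -0.58 (SE 0.16, adjusted p = 0.019). The median difference over the 41 members was -0.06, against 0.00 over all genes tested, and that of the 4 class II genes was 0.19, with 0 called. The calls of C1qc, Lyz1 and Lyz2 held in all 14 settings. Leaving out deleted chow replicates 1, 2 and 3 left 3, 4 and 5 of the 6 calls, and leaving out deleted high-fat replicates 1, 2 and 3 left 3, 5 and 4. The differences of Cd53, Fcgr3 and Gpnmb lay between -0.61 and -0.33 where a left-out library ended their calls.

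Cell markers moved in deleted islets on the diet as well. Acinar genes had 11 of 15 tested called lower, with sums of 127 to 275 FPKM against 1867 to 3513 FPKM on chow. Endothelial genes had 4 of 11 and fibroblast and pericyte genes 6 of 7 called lower, and Nkg7 was called higher at 1.27, 1.08 and 1.06 FPKM on the diet against 0, 0.110 and 0 FPKM. Of the 10 islet hormone and secretory genes 6 were called higher and 0 lower, with sums of 485817 to 626501 FPKM on chow and 868293 to 918568 FPKM on the diet. With the acinar covariate the calls of Cd53 and Gpnmb were lost, the difference of Cd53 being -0.62 with it and -0.46 without, and that of Gpnmb -0.40 and -0.58. The part of the other cells was not tested.

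Between the genotypes on the high-fat diet 3 of the 36 tested members were called higher and 3 lower, shares near those of all genes. Lyz1, Lyz2 and Gpnmb were called higher in deleted islets, where 4.7% of all tested genes were called higher. C1qa, H2-Aa and H2-Ab1 were called lower, where 6.02% of all tested genes were called lower. Over the 41 members 13 differences lay above and 28 below 0, with a median of -0.18 against 0.01 over all genes tested. Gpnmb was at 0.905, 1.23 and 1.17 FPKM in floxed and 2.96, 2.92 and 3.59 FPKM in deleted libraries, a difference of 0.98 (SE 0.16, adjusted p = 0.00048). C1qa was at 38.0, 29.8 and 33.3 FPKM in floxed and 20.0, 18.4 and 21.8 FPKM in deleted libraries, a difference of -0.72 (SE 0.10, adjusted p = 0.00014). In both genes the genotypes did not overlap. The other C1q chains had differences of -0.24 for C1qb and -0.35 for C1qc (adjusted p = 0.16 and 0.065).

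H2-Aa was at 35.5, 32.6 and 37.4 FPKM in floxed and 24.0, 24.2 and 29.1 FPKM in deleted libraries on the diet, without overlap, a difference of -0.44 (SE 0.10, adjusted p = 0.01). H2-Ab1 was lower by 0.34 and Cd74 had a difference of -0.20 (adjusted p = 0.045 and 0.14). Lyz2 was at 80.0, 69.4 and 85.6 FPKM in floxed and 106, 103 and 88.9 FPKM in deleted libraries, and was higher by 0.34 (adjusted p = 0.042). Lyz1 was higher by 0.42 (adjusted p = 0.013). The calls of C1qa and Gpnmb held in all 14 settings. H2-Ab1 lost its call with any of 5 libraries left out (floxed high-fat replicates 1, 2 and 3 and deleted high-fat replicates 1 and 2, differences between -0.38 and -0.23). Lyz2 lost it with 4 left out (floxed replicates 1 and 2, deleted replicates 1 and 2, differences between 0.25 and 0.35). H2-Aa lost it without floxed replicate 3 or deleted replicate 1 (-0.39 in each), and Lyz1 without deleted replicate 2 (0.36).

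Endothelial genes were lower in deleted islets on the diet (6 of 11 called), with sums of 145 to 156 FPKM against 175 to 225 FPKM in floxed islets. Fibroblast and pericyte genes had 1 of 7 tested called lower, with sums of 7.85 to 11 against 11.1 to 29.3 FPKM. Acinar sums overlapped at 127 to 275 and 29.4 to 445 FPKM, with 0 genes called. With the acinar covariate 5 of the 6 calls held and that of H2-Ab1 was lost at the same difference of -0.34 (adjusted p = 0.051). Of the islet hormone and secretory genes 3 of 10 were called higher, Gcg, Sst and the transcription factor gene Pdx1. Whether the endothelial, fibroblast, pericyte or endocrine genes had a part in the members' differences was not tested.

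The diet difference was compared between the genotypes as the diet difference of deleted islets minus that of floxed islets. It was called above 0 for Gpnmb and Cd14, where 1.42% of all tested genes were called above 0, and for no member below 0. For Gpnmb it was 1.16 (SE 0.23, adjusted p = 0.0063), the fall with diet being 1.73 in floxed and 0.58 in deleted islets. The call held in all 20 settings tried. For Cd14 it was 1.12 (SE 0.30, adjusted p = 0.045). Cd14 measured 6.16, 5.31 and 2.61 FPKM in floxed islets on chow, where 2 libraries stood above the third, and 1.17, 1.71 and 1.5 FPKM on the diet. In deleted islets it measured 1.43, 2.03 and 2.22 FPKM and 2.21, 1.11 and 2.27 FPKM, which overlapped. The Cd14 call held in 5 of 20 settings and was lost with any of 10 of the 12 libraries left out, all but deleted high-fat replicate 2 and floxed chow replicate 3, with differences between 0.93 and 1.21. Of the 36 tested members 30 lay above 0, with a median of 0.25 against 0.01 over all genes tested. The 36 include Ptprc and Itgax, in which the filter, passed only through the floxed chow libraries of this comparison, favoured a value above 0.

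**Figure D5:**
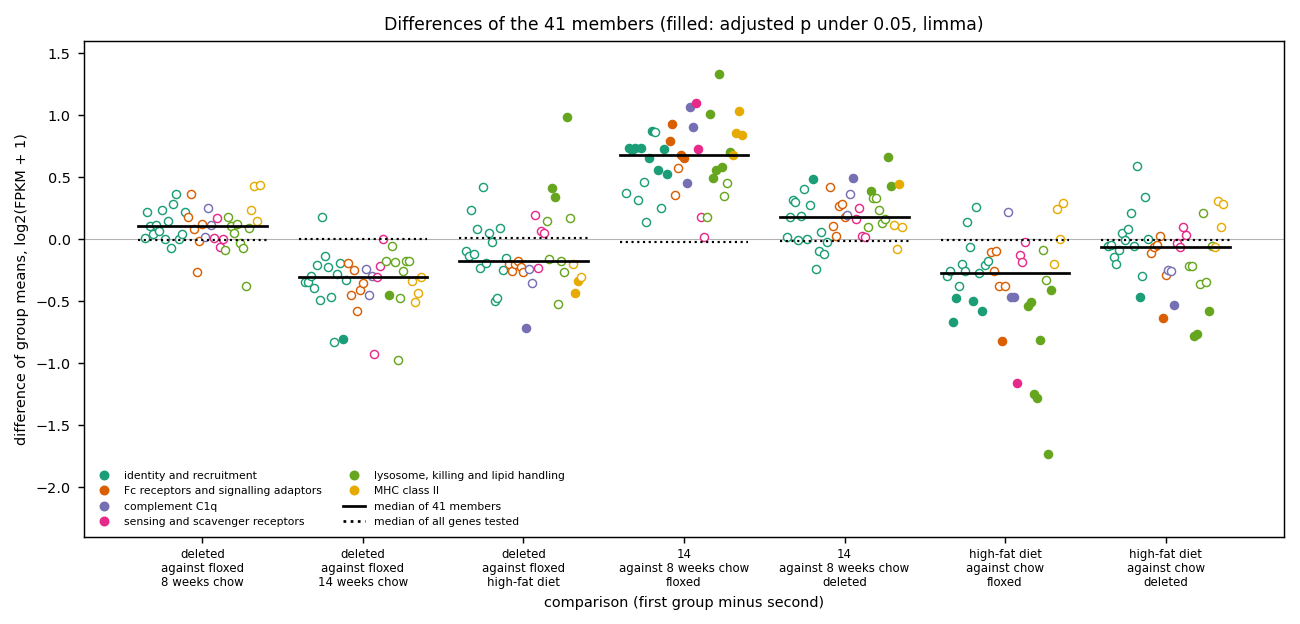
Difference of group means on the log2(FPKM + 1) scale (vertical axis) for each of the 41 members in 7 comparisons, coloured by role, with filled points called at an adjusted p under 0.05 and lines at the median of the members (solid) and of all genes tested (dotted). The members' median is 0.68 for age in floxed islets and 0.18 in deleted islets, and on the diet in floxed islets the class II points lie above most others.

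Genes of the wider pathways were read from lists made beside the members. Of 20 genes of class II regulation, peptide loading and co-stimulation 11 were tested. Ciita, the master activator of class II transcription, stayed between 0 and 0.138 FPKM and was not tested, and the loading chain H2-DMa lay between 1.21 and 3.89 FPKM. With age in floxed islets 2 of the 11 rose, the endosomal proteases Ctsl (0.41, adjusted p = 7.46e-05) and Lgmn (0.51, adjusted p = 0.0032), and in deleted islets 1 rose, Ctsl again (0.34, adjusted p = 0.00063). These proteases are also made by cells other than macrophages. Over all tested genes 3.2% were called higher with age in floxed and 2.35% in deleted islets. With the diet 2 of the 11 fell in floxed islets, Ctsb (-0.56, adjusted p = 9.24e-07) and Lgmn (-0.43, adjusted p = 0.0019), and 3 in deleted islets, the third being Cd40. The share in floxed islets is near the 13.5% of all tested genes called lower with the diet there, and in deleted islets 5.91% were called lower. Cd40, the co-stimulatory receptor for T cell help, measured 4.11, 4.22 and 3.42 FPKM in floxed and 2.36, 2.22 and 1.68 FPKM in deleted islets on the diet. The groups did not overlap, with a difference of -0.67 (SE 0.13, adjusted p = 0.0026), and Cd40 was also called below 0 for the interaction with diet at -0.70 (adjusted p = 0.045). Ctsb was called above 0 for that interaction, at 0.31 (adjusted p = 0.03).

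Of 64 further myeloid genes 41 were tested. With age in floxed islets 9 rose and 0 fell, where 3.2% of all tested genes were called higher. The 9 were led by Lgals3, the lectin galectin-3 (0.69, adjusted p = 0.0023), and the scavenger receptor Msr1 (0.78, adjusted p = 0.0066). In deleted islets 0 rose and 1 fell, the cytokine gene Il1b (-0.83, adjusted p = 0.023). With the diet 19 of the 41 fell in floxed islets and 7 in deleted islets, and 0 rose in either. Over all tested genes 13.5% were called lower with the diet in floxed and 5.91% in deleted islets. Lpl, the lipoprotein lipase of lipid-handling macrophages and other cells, measured 139, 131 and 135 FPKM on chow and 77.4, 76.3 and 72.1 FPKM on the diet in floxed islets. Its groups were far apart, with a difference of -0.83 (SE 0.07, adjusted p = 8.96e-08). In deleted islets on the diet it measured 119, 106 and 105 FPKM, higher than floxed by 0.54 (adjusted p = 3.28e-05), and its interaction with diet was 0.51 (adjusted p = 0.0051). Mmp12, a macrophage elastase, had an interaction with diet of 0.70 (adjusted p = 0.025).

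Of 13 growth factor and chemoattractant genes found 8 were tested. With the diet in floxed islets 5 fell and 1 rose, and 4 fell in deleted islets, where 13.5% and 5.91% of all tested genes were called lower. Csf1, the ligand of the receptor Csf1r, measured 6.89, 8.05 and 7.40 FPKM on chow and 3.95, 4.13 and 4.72 FPKM on the diet in floxed islets, without overlap, a difference of -0.68 (SE 0.13, adjusted p = 0.0006). The monocyte attractant Ccl2 fell by 1.63 in floxed and 1.17 in deleted islets (adjusted p = 0.0031 and 0.036). Ccl7, a related attractant, rose with age in floxed islets by 1.01 (adjusted p = 0.026).

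The members did not vary as 1 unit across the 18 libraries. Each tested member was correlated with the mean of the others, standardised on the log2 scale. This is a description over 18 libraries that differ in group and cell makeup, and their depth is unknown. Pearson's r was highest for Ctss (0.985), C1qb (0.936), C1qc (0.904), Laptm5 (0.900) and Cd74 (0.893). It was lowest for Gpnmb (0.288), Cx3cr1, the fractalkine receptor (0.295), Plek (0.302), Lyz1 (0.324), Cd68 (0.335) and Lyz2 (0.410). Among genes outside the list the 10 closest to the members' mean were Oaf (0.899), Ctsz (0.886), Ctsc (0.874), Tgfbi (0.866), Egfl7 (0.864), Nhsl1 (0.859), Cyba (0.858), Akr1a1 (0.839), Podxl (0.832) and Arpc1b (0.825). Ctsz and Ctsc are lysosomal cathepsins and Cyba is the p22phox subunit of the phagocyte oxidase, while Egfl7 and Podxl are expressed by endothelium. Mean Ctsc was 8.09, 18.1 and 9.44 FPKM in floxed islets at 8 weeks, at 14 weeks and on the diet, and 8.91, 11.3 and 7.17 FPKM in the same groups of deleted islets. It was thus lowest in deleted islets on the diet, whereas the sum of the members was lowest in floxed islets at 8 weeks.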

How the data were processed

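RNA of isolated islets was measured in 18 libraries. Per library the authors deposited FPKM by gene symbol, made with TopHat2 2.0.13, Bowtie2 2.2.3, SAMtools 0.1.19 and Cufflinks 2.2.1 on the mouse build mm10, per the submitters' processing notes. The unit follows from Cufflinks and the range of the values. The annotation and any filters are not stated. Per the labels' protocols, cDNA was made with a SMART-Seq HT kit and libraries with Nextera, which does not mark strand. The number of fragments is unknown.

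From these values, 12234 genes reaching 1 FPKM in 3 or more libraries were kept, and log2(FPKM + 1) was fitted with limma 3.58.1 (R 4.3.3, statmod 1.5.0) as 6 group means, with robust trended variances and Benjamini-Hochberg adjustment over all tested genes. The model was tested on simulated data. Positions are from GENCODE M21 and promoters from RefSeq. The members and lists were chosen with earlier results of these data known. Named were all members, up to 4 called genes with the smallest p per other list and comparison (of which only some are printed), and the 10 genes most correlated with the members' mean. Alternatives were a pseudocount of 0.1, no filter, quantile and median-ratio scaling, only the groups compared, the replicate block, sample quality weights, an acinar covariate and leaving out each library. Tables were made with pandas 2.3.3 and numpy 2.4.6 in Python 3.11.15, figures with matplotlib 3.10.9.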

Additional observations from a re-analysis of the deposited data

Results flagged for a closer look

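For 4 members the difference tested in 1 genotype departed from that in the other by the interaction test itself. The diet difference of deleted islets minus that of floxed islets was 1.12 for Cd14 and 1.16 for Gpnmb on the log2 scale (adjusted p = 0.045 and 0.0063 from limma). The age difference, taken the same way, was -0.63 for Ctss and -0.94 for H2-Aa (adjusted p = 0.043 and 0.012). All 4 rest in part on the 3 floxed 14-week chow libraries, which enter both interactions. Groups of 3 libraries are too small for a check of single outlying libraries.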

How the results depend on the processing

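Counts of members called depended on the setting mainly where few were called. Of the 28 age calls in floxed islets 18 members were called with the acinar covariate. The 6 in deleted islets became 3 with no filter, 3 with the acinar covariate, 0 with only the groups compared and 11 with sample quality weights. The 2 between genotypes at 14 weeks on chow became 1 with a pseudocount of 0.1, 0 with no filter, 0 with only the groups compared and 10 with sample quality weights, which also called 2 at 8 weeks and 11 with diet in deleted islets. The interaction with diet called 1 with a pseudocount of 0.1, no filter, only the groups compared or the acinar covariate, and 5 with sample quality weights. The interaction with age called 0 with no filter, 5 with quantile scaling, 5 with the acinar covariate and 9 with sample quality weights. Median-ratio scaling moved no count by over 1.5 times. Of 67 single calls 0 changed sign in any setting, and the causes of these shifts were not tested.

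With 1 library left out, the counts ranged from 20 to 25 (age, floxed), 1 to 6 (age, deleted), 0 to 0 (genotype, 8 weeks), 0 to 1 (genotype, 14 weeks chow), 3 to 8 (genotype, diet), 14 to 16 (diet, floxed), 3 to 7 (diet, deleted), 1 to 3 (interaction with diet) and 1 to 5 (interaction with age). A group of 2 was then assumed to vary like the others.

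With the replicate block the 2 calls between genotypes at 14 weeks on chow became 0 and the interaction with diet kept 1 call. It also ended the calls of Ctss in the interaction with age (adjusted p = 0.051), Adgre1 with diet in floxed islets (0.051) and Pld4 with age in floxed islets (0.061), and no other. The labels give same-numbered libraries only that number in common. Deviations of same-numbered libraries of different groups had a median correlation of 0.041 (-0.159 to 0.232, 45 pairs), with 8 pairs over 0.1. For libraries of other numbers the median was -0.016 (-0.234 to 0.220, 90 pairs), with 7 pairs over 0.1. Whether same-numbered libraries shared a batch was not tested. Without fragment counts, differences of genes near 1 FPKM cannot be weighed by depth.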
